A study of Mus musculus with 9 samples.

Results

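The genes described here build and start the DNA replication fork or carry cells from G1 into S phase. They are 50 genes chosen by symbol: 12 of origin licensing, 4 of helicase activation, 9 of the sliding clamp, its loader and the single-strand binding protein RPA, 7 polymerase and lagging-strand genes, 4 of nucleotide supply, 8 G1/S cyclins and kinases, and 5 E2F factors with *Uhrf1*. All 50 are listed among the 24341 genes of the deposited files and all 50 passed the filter on low counts in each comparison. The RNA came from mouse embryonic fibroblasts (MEFs) of strain C57BL/6 grown in DMEM with 10% FBS, with 3 samples labelled WT, 3 labelled *Atm-/-* and 3 labelled *Sirt6-/-*. *Atm* encodes a kinase that signals DNA double-strand breaks, and *Sirt6* encodes a chromatin deacetylase. The labels' treatment text, which is the same for all 9 samples, also names p53-null mice and mice null for both *Atm* and p53 as sources of MEFs, without saying which samples came from them. *Trp53*, the p53 gene, had 223, 227 and 208 normalized CPM (a read count relative to the total of its sample after TMM scaling) in WT, 23.3, 27.0 and 27.4 in *Atm-/-* and 279, 282 and 276 in *Sirt6-/-*. The study's methods describe immortalized MEFs null for both *Atm* and p53, and immortalized *Sirt6-/-* MEFs, obtained from different laboratories. They do not say which line gave which RNA sample, so genotype, p53 status and cell line cannot be told apart in what follows.

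Before replication, the origin recognition complex (ORC) with *Cdc6* and *Cdt1* loads the *Mcm2* to *Mcm7* helicase ring onto DNA in G1. Cyclin D with *Cdk4* or *Cdk6*, and cyclin E with *Cdk2*, then phosphorylate RB family proteins and release E2F factors, which switch on many of the genes of the fork. Fibroblasts that leave the cell cycle lower most of these transcripts, and in bulk RNA a smaller share of S-phase cells and less RNA per cell cannot be told apart.

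Promoters of genes of this kind are known for E2F sites, so the promoter sequences of the members were searched. RefSeq promoters on GRCm38.p6, each from 250 bases before to 50 after a transcription start, matched 40 of the 50 genes, with 49 promoters. An E2F motif (TTTCCCGC, TTTCGCGC, TTTGCCGC or TTTGGCGC, on either strand, with matches allowed to overlap) occurred in 16 of the 49, or 32.7%, against 2.8% of the 20602 promoters of all listed genes. CCAAT on either strand, the box read by NF-Y, occurred in 63.3% of the member promoters against 38.0% of all promoters. TTTGAA, the cell cycle homology element of many G2/M promoters, occurred in 12.2% against 15.3%. In related lists described below, the E2F motif occurred in 29.7% of promoters of other replication factors, 20.8% of RB pathway and 6.25% of G2/M promoters. CCAAT occurred in 37.8%, 33.3% and 87.5% of them, and TTTGAA in 18.9%, 12.5% and 62.5%. The median GC content was 61.3% in member promoters and 56.7% in all promoters, and its part in these shares was not tested. A match is a description of the letters and not a site shown to be bound. The 6 stretches here lie upstream of the start, carry the motif in capitals and were picked to show members with different patterns across the knockouts: *Orc1* (chr4:108579407-108579453, plus strand) and *E2f7* (chr10:110745221-110745268, plus strand) were higher in both knockouts than in WT, *Cdc6* (chr11:98907993-98908040, plus strand) and *Pola1* (chrX:93632266-93632313, minus strand) higher in *Atm-/-* and lower in *Sirt6-/-*, *Mcm6* (chr1:128359725-128359835, minus strand) lower in both, and *Mcm5* (chr8:75109336-75109387, plus strand) was called higher in *Atm-/-* alone.
Orc1: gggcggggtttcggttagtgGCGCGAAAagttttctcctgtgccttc
E2f7: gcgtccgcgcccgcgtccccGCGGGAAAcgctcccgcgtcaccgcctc
Cdc6: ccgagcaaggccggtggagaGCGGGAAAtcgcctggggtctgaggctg
Pola1: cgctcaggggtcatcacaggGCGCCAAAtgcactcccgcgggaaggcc
Mcm6: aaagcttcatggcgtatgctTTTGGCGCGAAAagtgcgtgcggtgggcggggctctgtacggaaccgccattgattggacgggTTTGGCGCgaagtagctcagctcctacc
Mcm5: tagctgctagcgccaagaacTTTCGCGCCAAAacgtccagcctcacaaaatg
The 2 matches of *Mcm5* lie on opposite strands and share bases, as do the first 2 of the 3 matches of *Mcm6*. Among the 16 genes with a match, the median log2 fold change was 0.34 in *Atm-/-* and -0.46 in *Sirt6-/-*, and among the 24 without one it was 0.17 and -0.21. The 6 genes shown were picked for their different directions, so it is no result that they differ. No test of the split by motif was made.

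The 9 samples held between 32187040 and 33837949 counted reads, so 3 reads correspond to 0.0887 to 0.0932 CPM before TMM scaling, far below the levels of all members. The check of the labels gave 4, 5 and 7 reads of *Sirt6* for *Sirt6-/-* against 487, 402 and 472 for WT. The gene *Atm* itself had more reads under its knockout label (3768, 3564 and 3443) than in WT (1536, 1617 and 1627); reads summed over a whole transcript do not check a label whose altered part is not given, so *Atm-/-* means the samples labelled so wherever a direction is drawn from them. Of 10 fibroblast markers, 9 had a mean of at least 1 RPKM in WT and in *Atm-/-* and 8 in *Sirt6-/-*, with *Lum* below that level in all genotypes and *Thy1* in *Sirt6-/-*. Their summed RPKM was 6182 to 6725 in WT, 2684 to 2742 in *Atm-/-* and 4701 to 4728 in *Sirt6-/-*. Of the 9 tested, 8 were called lower in *Atm-/-* and 1 higher (*Thy1*), and 6 were called lower in *Sirt6-/-* and 3 higher (*Col1a2*, *Pdgfrb* and *Dcn*). The summed RPKM of 5 neural markers was 0.455 to 0.566 in WT, 22.1 to 24.8 in *Atm-/-* (from *Sox2* and *Map2*) and 8.92 to 10.4 in *Sirt6-/-* (from *Map2*). That of 7 epithelial markers was 12.5 to 15.03, 29.9 to 33.2 (mostly *Krt18*) and 10.2 to 12.7 in the same order, that of 5 skeletal muscle markers 7.29 to 8.76 (mostly *Acta1*), 0.636 to 1.02 and 0.866 to 1.07, and that of 5 endothelial markers 0.555 to 0.947, 1.89 to 2.43 (mostly *Kdr*) and 0.156 to 0.228. *Myog*, *Myh3* and *Tie1* were at or near 0 in all genotypes. The part of these markers in the results was not tested. The labels do not say whether samples of a genotype came from separate cultures, so p-values measure only the spread between these samples, which may be technical.

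WT replicate 2 stood apart. It was the highest of the 3 WT samples for 41 of the 50 members, or 82%, while it was the highest for 36.2% of all genes. Its counts differed from those of the other WT samples with a chi-square per gene of 15.7 and 14.5, whereas all other pairs within a genotype gave 5.13 to 6.69. The results against WT are therefore given with and without it. The members took 0.66% to 0.727% of the reads of the WT samples, 0.783% to 0.805% in *Atm-/-* and 0.542% to 0.565% in *Sirt6-/-*, and these ranges of unscaled shares did not overlap. With the read totals scaled by TMM the shares were 0.701% to 0.771% in WT, 0.746% to 0.764% in *Atm-/-* and 0.54% to 0.562% in *Sirt6-/-*, so WT and *Atm-/-* overlapped and *Sirt6-/-* stayed below both.

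Compared per length by RPKM, the most abundant member in WT was *Pcna* (319 ± 19.9, mean ± SD, n = 3), the sliding clamp, followed by *Cdk4* (285 ± 5.19). *Rrm1*, the large subunit of ribonucleotide reductase, came next at 131 ± 2.33 RPKM. The least abundant was the transcription factor *E2f2* at 2.39 ± 0.272 RPKM, and it was last in both knockouts too. In *Atm-/-* the order at the top was *Cdk4* (439 ± 7.18) and then *Pcna* (365 ± 15.7), and in *Sirt6-/-* also *Cdk4* (299 ± 4.62) and then *Pcna* (251 ± 10.2). In WT the helicase subunits *Mcm7*, *Mcm6*, *Mcm2*, *Mcm3* and *Mcm4* held places close together, with *Rrm2* among them, between 101.3 and 94.8 RPKM. Their SDs between samples, 5.19 to 8.57, cover the gaps between neighbouring means. Within each WT sample *Mcm7* was the highest of these subunits (96.3, 106.7 and 100.9 RPKM).

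**Figure D1:**
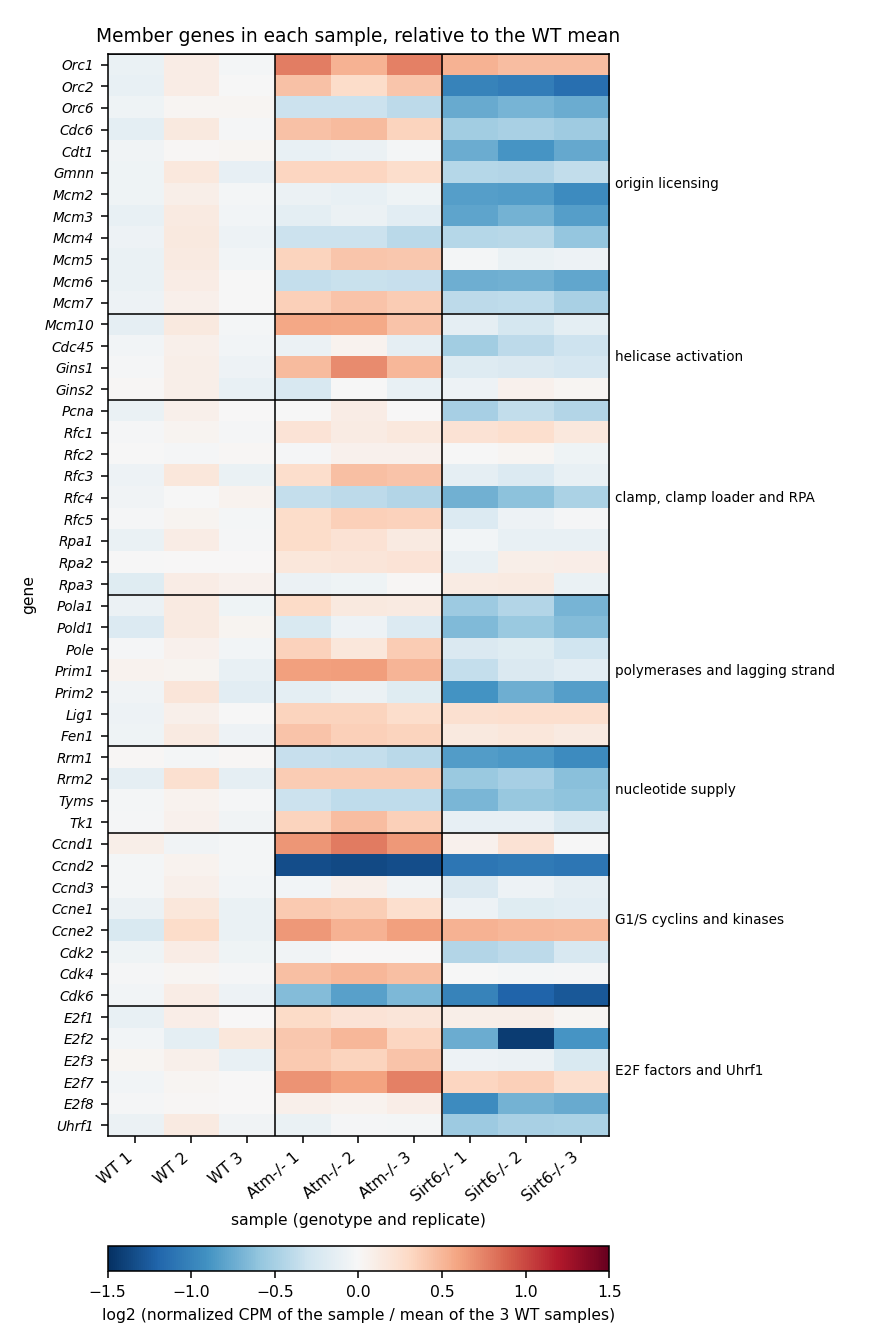
Each cell gives log2 of a sample's normalized CPM over the mean of the 3 WT samples, for the 50 genes (rows, grouped by role) in the 9 samples (columns, by genotype and replicate); red is higher and blue lower than the WT mean. The WT replicate 2 column is the warmest of the WT columns for 41 genes, and the Sirt6-/- columns are mostly blue, whereas the Atm-/- columns hold both colours.

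*Atm-/-* against WT asks how these transcripts stand in cells labelled as lacking the kinase. Of the 50 genes, 28 were higher and 9 lower in *Atm-/-* (quasi-likelihood test of edgeR, two-sided, with p adjusted by the Benjamini-Hochberg method over all 13283 genes tested, here called the edgeR adjusted p, under 0.05), and 13 were not called. Over all genes tested, 34.7% were called higher and 33.6% lower. Most differences were small: 4 members rose by at least 1.5-fold and 2 fell by as much, against 17.7% and 16.9% of all genes. The members that rose so far were *Orc1*, *Ccnd1*, *Ccne2* and *E2f7*, and those that fell were *Ccnd2* and *Cdk6*. The median log2 fold change over the members was 0.19, beside 0.015 over all genes. Without WT replicate 2 there were 28 higher and 8 lower and the median was 0.26. With library totals in place of TMM the median of all genes moved to 0.18, the calls over all genes became 6156 higher and 3326 lower in place of 4611 and 4469, and the members gave 33 higher and 8 lower with a median of 0.36.

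*Sirt6-/-* against WT asks the same of the deacetylase knockout. Here 6 of the 50 genes were higher, 31 lower and 13 not called, with 39.2% of the 13206 genes tested called higher and 37.4% lower. At 1.5-fold or more 0 rose and 15 fell, against 25.3% and 20.1% of all genes. The 6 members that rose were *Orc1*, *Rfc1*, *Lig1*, *Fen1*, *Ccne2* and *E2f7*. The median over the members was -0.30, beside 0.024 over all genes. Without WT replicate 2 there were 6 higher and 28 lower with a median of -0.27. Library totals moved the median of all genes to 0.11. The calls over all genes became 5796 higher and 4317 lower in place of 5176 and 4938. With library totals 8 members were higher and 26 lower, with a median of -0.21.

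**Figure D2:**
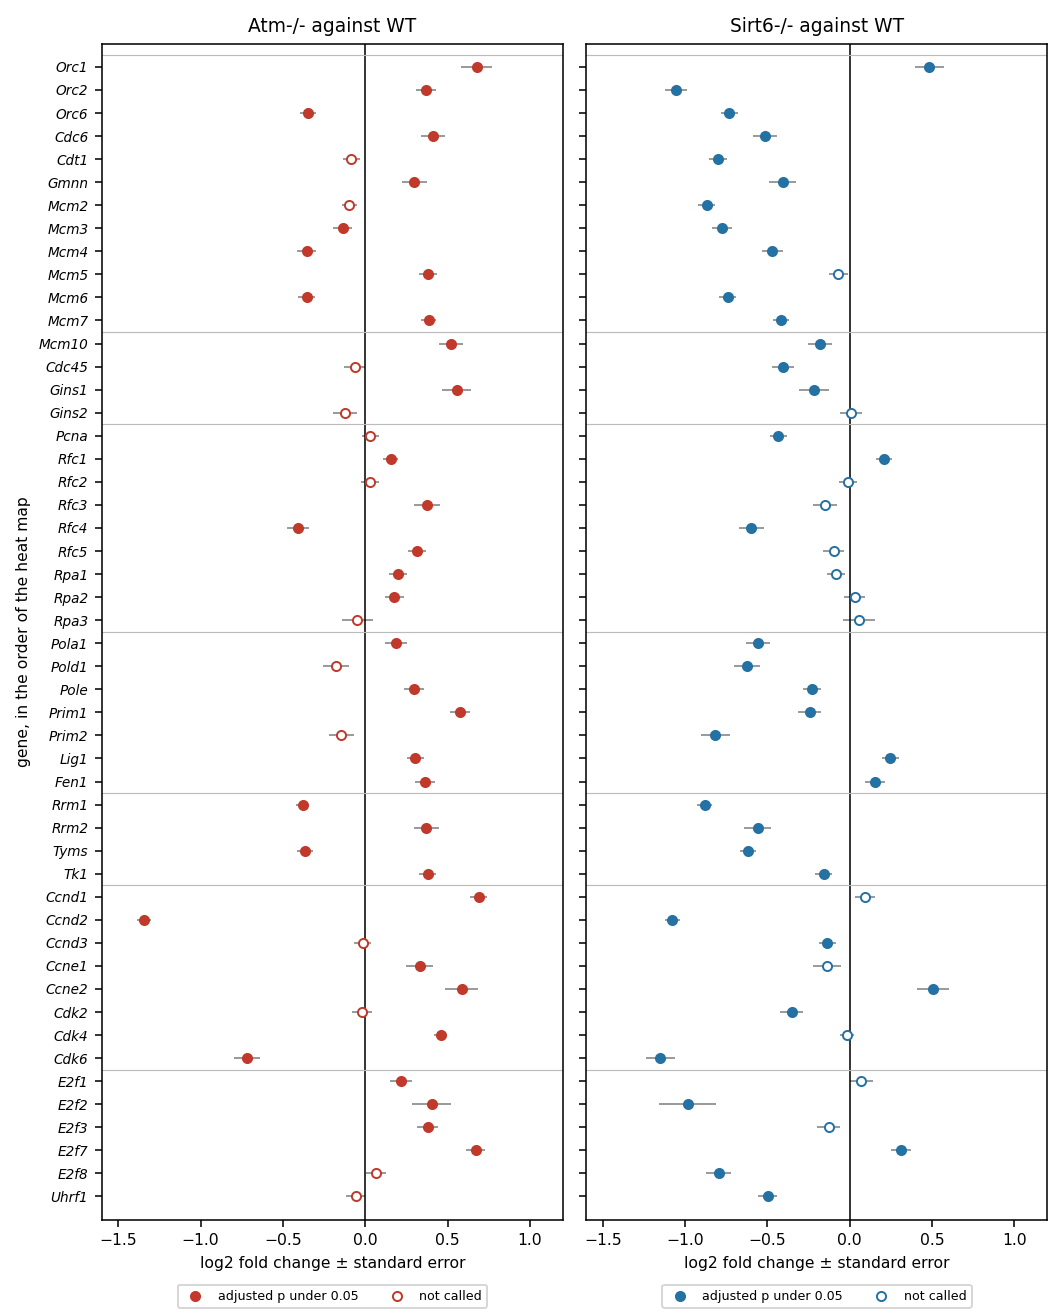
Log2 fold change of each gene against WT with its standard error, in Atm-/- (left) and Sirt6-/- (right), 3 samples per genotype; filled points passed an edgeR adjusted p under 0.05 and lines separate the roles. The left panel has 28 filled points above 0 and 9 below, and the right panel 6 above and 31 below.

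Both comparisons use the same WT samples, so a WT sample that is high or low moves both, and no overlap between their calls is read as a result. The values of both knockouts are given side by side for each gene, and the comparison between the knockouts, which leaves WT out, follows them.

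Of the 12 licensing genes, 6 rose and 4 fell in *Atm-/-*, and 1 rose and 10 fell in *Sirt6-/-*. *Orc1* (chr4:108579423-108614833, plus strand), an ATP-binding ORC subunit, had 16.7, 19.3 and 17.5 normalized CPM in WT, 30.3, 25.5 and 30.0 in *Atm-/-* and 25.5, 24.6 and 24.6 in *Sirt6-/-*. It was above every WT sample in both knockouts (*Atm-/-*: log2 fold change 0.68, standard error 0.094, edgeR adjusted p = 1.61e-05; *Sirt6-/-*: log2 fold change 0.48, standard error 0.085, edgeR adjusted p = 0.000121). Its partner *Orc2* (chr1:58462771-58505109, minus strand) had 82.4, 95.5 and 88.4 in WT, 120.1, 108 and 118 in *Atm-/-* and 44.4, 43.2 and 40.4 in *Sirt6-/-*. The 3 genotypes did not overlap for *Orc2*, which rose in *Atm-/-* (log2 fold change 0.37, standard error 0.063, edgeR adjusted p = 0.000105) and fell in *Sirt6-/-* (log2 fold change -1.06, standard error 0.067, edgeR adjusted p = 1.95e-09). *Orc2* shares 29.8% of its exon bases with *Nif3l1* on the opposite strand, and the library protocol in the labels describes no strand marking, so reads there cannot be assigned. *Orc6* fell in both (log2 fold change -0.35 and -0.73; edgeR adjusted p = 1.93e-05 and 4.96e-09).

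*Cdc6* (chr11:98907801-98923940, plus strand), the ATPase that loads the helicase with ORC, had 56.6, 69.5 and 62.3 normalized CPM in WT, 85.4, 87.4 and 79.0 in *Atm-/-* and 43.7, 44.8 and 43.6 in *Sirt6-/-*. No sample of one genotype reached another's range for *Cdc6* (*Atm-/-*: log2 fold change 0.41, standard error 0.072, edgeR adjusted p = 0.000138; *Sirt6-/-*: log2 fold change -0.51, standard error 0.073, edgeR adjusted p = 1.58e-05). *Cdt1*, the other loader, was not called in *Atm-/-* (log2 fold change -0.084, standard error 0.049) and fell in *Sirt6-/-* (log2 fold change -0.80, standard error 0.055, edgeR adjusted p = 5.21e-09). Geminin, the inhibitor of *Cdt1* encoded by *Gmnn* (chr13:24751845-24761923, minus strand), had 38.8, 45.3 and 37.2 in WT, 50.5, 50.5 and 48.7 in *Atm-/-* and 30.1, 29.9 and 31.3 in *Sirt6-/-*. It was higher than in any WT sample in *Atm-/-* (log2 fold change 0.30, standard error 0.076, edgeR adjusted p = 0.00293) and lower than in any in *Sirt6-/-* (log2 fold change -0.41, standard error 0.08, edgeR adjusted p = 0.00033). Within samples, the RPKM of *Cdt1* over that of *Gmnn* was 1.29, 1.17 and 1.43 in WT, 0.956, 0.967 and 1.05 in *Atm-/-* and 1.03, 0.943 and 0.979 in *Sirt6-/-*, so both knockouts lay below WT and overlapped each other.

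The 6 subunits of the helicase ring, which work as one hexamer, did not move as one set. *Mcm7* (chr5:138164583-138172422, minus strand) had 245, 272 and 256 normalized CPM in WT, 331, 347 and 337 in *Atm-/-* and 196, 197 and 184 in *Sirt6-/-*, and so rose in one knockout (log2 fold change 0.38, standard error 0.047, edgeR adjusted p = 4.28e-06) and fell in the other (log2 fold change -0.42, standard error 0.051, edgeR adjusted p = 3.01e-06). *Mcm4* (chr16:15623897-15637400, minus strand) had 342, 398 and 342 in WT, 289, 289 and 272 in *Atm-/-* and 269, 270.1 and 242 in *Sirt6-/-*. All samples of both knockouts were below WT for *Mcm4* (*Atm-/-*: log2 fold change -0.36, standard error 0.058, edgeR adjusted p = 7.14e-05; *Sirt6-/-*: log2 fold change -0.47, standard error 0.063, edgeR adjusted p = 9.04e-06). *Mcm7* shares 7.25% of its exon bases with *Ap4m1* and 1.45% with *Cops6* on the opposite strand. On the same strand it shares 1.9% with *Mir25* and 1.99% with *Mir93*. *Mcm5* rose in *Atm-/-* (log2 fold change 0.38, standard error 0.057, edgeR adjusted p = 3.14e-05) and was at -0.07 in *Sirt6-/-* (standard error 0.057, edgeR adjusted p = 0.278). *Mcm6* fell in both (log2 fold change -0.35 and -0.74; edgeR adjusted p = 2.56e-05 and 1.03e-08). *Mcm2* fell in *Sirt6-/-* by 0.87 on the log2 scale and was not called in *Atm-/-* (-0.10, edgeR adjusted p = 0.0824), where it was called without WT replicate 1 (-0.12, edgeR adjusted p = 0.0421). *Mcm3* fell in *Sirt6-/-* (log2 fold change -0.77, standard error 0.061, edgeR adjusted p = 2.24e-08). Its small difference in *Atm-/-* (log2 fold change -0.14, standard error 0.057, edgeR adjusted p = 0.0452) was lost without WT replicate 2 (-0.065) or 3 (-0.15), without *Atm-/-* replicate 1 (-0.12), 2 (-0.15) or 3 (-0.11), and under other tests and filters, and it became 0.027 with library totals. Within samples, the highest of the 6 subunits by RPKM over the lowest was 1.37 ± 0.0466 in WT, 1.79 ± 0.0689 in *Atm-/-* and 1.44 ± 0.0173 in *Sirt6-/-* (mean ± SD, n = 3). The summed RPKM of the 6 was 528, 606 and 550.3 in WT, 618, 635 and 620.4 in *Atm-/-* and 416, 415 and 389 in *Sirt6-/-*, but RPKM carries no TMM scaling. In normalized CPM the 6 summed to 1723, 1982 and 1786 in WT, 1787, 1833 and 1797 in *Atm-/-* and 1276, 1274 and 1203 in *Sirt6-/-*, so *Atm-/-* lay above WT in the one scale and overlapped it in the other, while *Sirt6-/-* lay below WT in both.

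**Figure D3:**
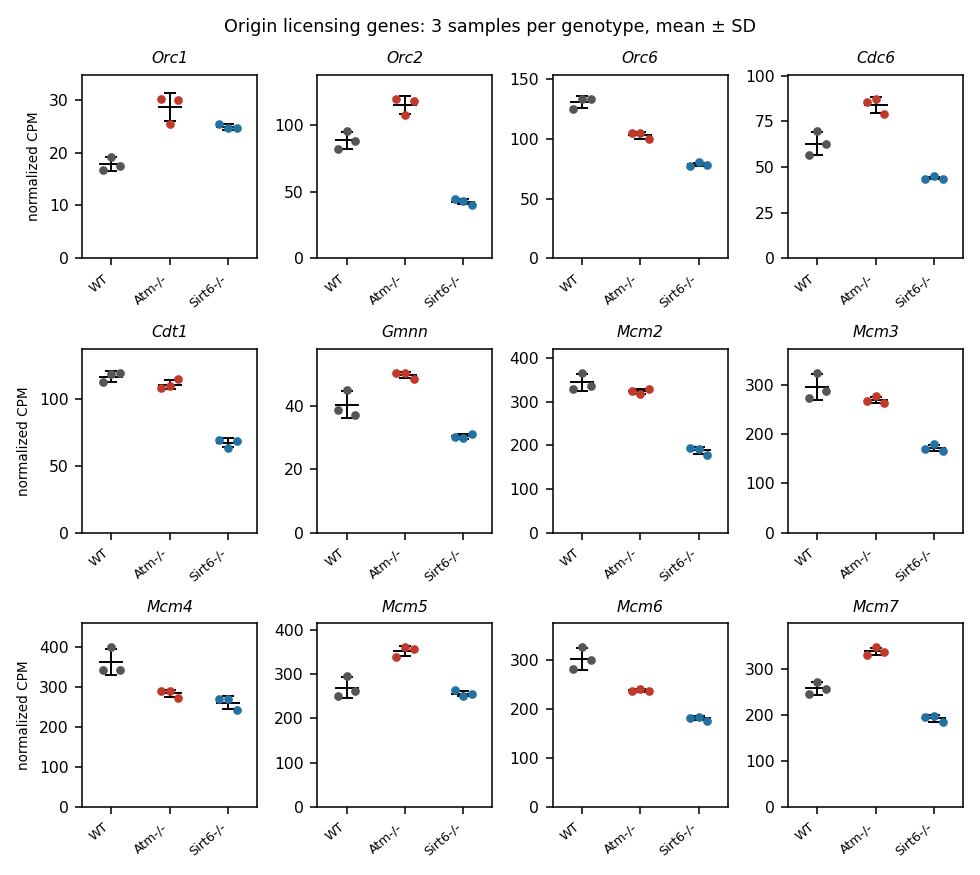
Normalized CPM of the 12 licensing genes in each of the 3 samples per genotype (points, axes starting at 0), with mean ± SD. For Orc2, Cdc6, Gmnn and Mcm7 the Atm-/- points lie above WT and the Sirt6-/- points below, while Orc6, Mcm4 and Mcm6 lie below WT in both knockouts and Orc1 above.

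Of the 4 helicase activation genes, 2 rose in *Atm-/-* and 3 fell in *Sirt6-/-*. *Mcm10* (chr2:4989714-5012791, minus strand), which helps to activate the loaded helicase, had 55.4, 67.2 and 59.2 normalized CPM in WT, 90.7, 90.0 and 81.6 in *Atm-/-* and 55.0, 50.6 and 54.6 in *Sirt6-/-*. It was clearly above WT in *Atm-/-* (log2 fold change 0.52, standard error 0.071, edgeR adjusted p = 1.41e-05) and just below WT in *Sirt6-/-* (log2 fold change -0.18, standard error 0.073, edgeR adjusted p = 0.0354). *Gins1* (chr2:150905400-150931280, plus strand), a subunit of the GINS complex, had 18.0, 19.2 and 17.3 in WT, 25.2, 29.6 and 25.7 in *Atm-/-* and 15.9, 15.7 and 15.2 in *Sirt6-/-*. It rose in *Atm-/-* (log2 fold change 0.56, standard error 0.09, edgeR adjusted p = 6.92e-05) and its lower level in *Sirt6-/-* was at the threshold (log2 fold change -0.22, standard error 0.091, edgeR adjusted p = 0.041). Both of these *Sirt6-/-* calls were lost with library totals (-0.092 for *Mcm10* and -0.13 for *Gins1*). The *Mcm10* call was also lost without WT replicate 2 (-0.12) or *Sirt6-/-* replicate 2 (-0.14) or 3 (-0.20). The *Gins1* call was lost without WT replicate 1 (-0.24) or 2 (-0.19) and without *Sirt6-/-* replicate 1 (-0.23), 2 (-0.22) or 3 (-0.20). *Cdc45* (chr16:18780447-18811987, minus strand), which joins GINS on the helicase, had 66.1, 71.3 and 66.1 in WT, 63.6, 70.4 and 61.7 in *Atm-/-* and 47.4, 51.6 and 54.6 in *Sirt6-/-*. It overlapped WT in *Atm-/-* and fell in *Sirt6-/-* (log2 fold change -0.40, standard error 0.066, edgeR adjusted p = 5.88e-05). *Gins2* was called in neither knockout and shares 67.3% of its exon bases with *Gse1* on the opposite strand.

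Among the 9 clamp, clamp loader and RPA genes, 5 rose and 1 fell in *Atm-/-*, and 1 rose and 2 fell in *Sirt6-/-*. *Pcna* was at 0.03 in *Atm-/-* (edgeR adjusted p = 0.613) and fell in *Sirt6-/-* (log2 fold change -0.43, standard error 0.053, edgeR adjusted p = 3.08e-06); with library totals it was called higher in *Atm-/-* (0.19). The loader subunits, which open the clamp around DNA, differed among themselves. *Rfc1* (chr5:65261850-65335670, minus strand), the large subunit, had 141, 147 and 141 normalized CPM in WT, 165, 156 and 159.8 in *Atm-/-* and 166, 170.4 and 159 in *Sirt6-/-*. It was slightly above WT in both (*Atm-/-*: log2 fold change 0.15, standard error 0.046, edgeR adjusted p = 0.0079; *Sirt6-/-*: log2 fold change 0.21, standard error 0.047, edgeR adjusted p = 0.000944). *Rfc3* (chr5:151642756-151651242, minus strand) had 49.2, 58.3 and 48.4 in WT, 62.3, 71.1 and 69.9 in *Atm-/-* and 47.4, 45.0 and 48.0 in *Sirt6-/-*. This subunit rose in *Atm-/-* (log2 fold change 0.37, standard error 0.077, edgeR adjusted p = 0.000598) and was not called in *Sirt6-/-* (log2 fold change -0.15, standard error 0.075, edgeR adjusted p = 0.0836), where it was called without WT replicate 1 (-0.20) or 3 (-0.21). *Rfc4* (chr16:23113943-23127737, minus strand) had 42.4, 43.7 and 45.4 in WT, 34.1, 33.3 and 32.3 in *Atm-/-* and 26.5, 28.6 and 31.6 in *Sirt6-/-*. Unlike *Rfc1* it fell in both (*Atm-/-*: log2 fold change -0.41, standard error 0.065, edgeR adjusted p = 6.6e-05; *Sirt6-/-*: log2 fold change -0.60, standard error 0.076, edgeR adjusted p = 4.88e-06). *Rfc5* and the RPA genes *Rpa1* and *Rpa2* rose in *Atm-/-* by 0.32, 0.20 and 0.18 on the log2 scale and were not called in *Sirt6-/-* (-0.098, -0.085 and 0.029), though *Rpa1* was called lower there without WT replicate 1 (-0.15). *Rfc2* and *Rpa3* were called in neither knockout, and *Rfc2* was called higher in *Atm-/-* with library totals (0.19). *Rfc2*, *Rfc4* and *Rfc5* share 15.1%, 12.7% and 10.7% of their exon bases with a gene on the opposite strand, and 2 pseudogenes are named after *Pcna*.

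Of the 7 polymerase and lagging-strand genes, 5 rose in *Atm-/-*, and in *Sirt6-/-* 2 rose and 5 fell. The primase subunits differed in *Atm-/-*. *Prim1* (chr10:128015168-128030037, plus strand), the catalytic subunit, had 62.1, 61.5 and 55.4 normalized CPM in WT, 91.5, 91.9 and 84.9 in *Atm-/-* and 46.5, 51.2 and 53.4 in *Sirt6-/-*. It rose in *Atm-/-* (log2 fold change 0.58, standard error 0.061, edgeR adjusted p = 1.04e-06) and fell in *Sirt6-/-* (log2 fold change -0.24, standard error 0.07, edgeR adjusted p = 0.00573), a call that library totals removed (-0.15). *Prim2* (chr1:33453810-33669795, minus strand), the large subunit, had 54.3, 64.0 and 50.6 in WT, 50.9, 52.9 and 49.8 in *Atm-/-* and 30.1, 33.9 and 31.8 in *Sirt6-/-*. It was not called in *Atm-/-* (log2 fold change -0.14, standard error 0.079, edgeR adjusted p = 0.119; called lower without WT replicate 3, at -0.22) and fell in *Sirt6-/-* (log2 fold change -0.82, standard error 0.086, edgeR adjusted p = 6.24e-07).

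The 3 polymerase genes all fell in *Sirt6-/-* and were mixed in *Atm-/-*. *Pola1* (chrX:93304767-93632155, minus strand), which extends the primer, had 91.1, 106 and 92.1 normalized CPM in WT, 118, 107 and 106 in *Atm-/-* and 66.3, 71.0 and 59.3 in *Sirt6-/-*. Its *Atm-/-* samples overlapped those of WT (log2 fold change 0.19, standard error 0.066, edgeR adjusted p = 0.0223), and that call was lost without WT replicate 1 (0.15) or 3 (0.15) or *Atm-/-* replicate 1 (0.14), while it fell below every WT sample in *Sirt6-/-* (log2 fold change -0.56, standard error 0.075, edgeR adjusted p = 8.41e-06). *Pole* (chr5:110286306-110337474, plus strand), the leading-strand polymerase, had 99.4, 105 and 98.0 in WT, 128, 114 and 131 in *Atm-/-* and 86.9, 88.8 and 81.9 in *Sirt6-/-*. It rose in the first knockout (log2 fold change 0.30, standard error 0.059, edgeR adjusted p = 0.000453) and fell in the second (log2 fold change -0.23, standard error 0.053, edgeR adjusted p = 0.00121). *Pold1*, the lagging-strand polymerase, fell in *Sirt6-/-* (log2 fold change -0.62, standard error 0.078, edgeR adjusted p = 4.27e-06) and was at -0.18 in *Atm-/-* (edgeR adjusted p = 0.0577), where it was called without WT replicate 1 (-0.27) or *Atm-/-* replicate 2 (-0.22). The 2 enzymes that finish Okazaki fragments went the other way in *Sirt6-/-*. *Lig1* (chr7:13277283-13311433, plus strand), the ligase, had 106, 117 and 111 in WT, 140.3, 140.4 and 133 in *Atm-/-* and 131, 133 and 132 in *Sirt6-/-*. It was above every WT sample in both knockouts (*Atm-/-*: log2 fold change 0.30, standard error 0.051, edgeR adjusted p = 9.91e-05; *Sirt6-/-*: log2 fold change 0.25, standard error 0.05, edgeR adjusted p = 0.000387). The flap nuclease *Fen1* rose in *Atm-/-* (log2 fold change 0.36, standard error 0.061, edgeR adjusted p = 9.66e-05) and slightly in *Sirt6-/-* (log2 fold change 0.15, standard error 0.06, edgeR adjusted p = 0.0304), a call lost without WT replicate 1 (0.11) or 3 (0.11) or without *Sirt6-/-* replicate 1 (0.16), 2 (0.14) or 3 (0.16).

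All 4 genes of nucleotide supply fell in *Sirt6-/-*, whereas 2 rose and 2 fell in *Atm-/-*. *Rrm1* (chr7:102441695-102469771, plus strand) had 559, 543 and 559 normalized CPM in WT, 434, 431 and 418 in *Atm-/-* and 309, 304 and 288 in *Sirt6-/-*. It was below every WT sample in both (*Atm-/-*: log2 fold change -0.38, standard error 0.04, edgeR adjusted p = 9.57e-07; *Sirt6-/-*: log2 fold change -0.88, standard error 0.045, edgeR adjusted p = 1.51e-10). *Rrm2* (chr12:24708241-24714146, plus strand), the small subunit that limits ribonucleotide reductase in S phase, had 213, 276 and 213 in WT, 304, 304 and 305 in *Atm-/-* and 159.5, 165 and 152 in *Sirt6-/-*. It rose in *Atm-/-* (log2 fold change 0.37, standard error 0.078, edgeR adjusted p = 0.000683), with WT replicate 2 nearest to the *Atm-/-* samples, and fell in *Sirt6-/-* (log2 fold change -0.56, standard error 0.083, edgeR adjusted p = 2.21e-05). The RPKM of *Rrm2* over that of *Rrm1* was 0.699, 0.932 and 0.700 in WT, 1.28, 1.30 and 1.34 in *Atm-/-* and 0.946, 0.999 and 0.966 in *Sirt6-/-*, so both knockouts lay above WT, *Sirt6-/-* only just above WT replicate 2. *Tk1* (chr11:117815526-117826092, minus strand), thymidine kinase, had 125, 133 and 122 normalized CPM in WT, 159, 175 and 163 in *Atm-/-* and 117, 116 and 107 in *Sirt6-/-*. It rose in *Atm-/-* (log2 fold change 0.38, standard error 0.052, edgeR adjusted p = 1.3e-05) and fell slightly in *Sirt6-/-* (log2 fold change -0.16, standard error 0.053, edgeR adjusted p = 0.0134), a call lost with library totals (-0.069) and without *Sirt6-/-* replicate 3 (-0.12). Thymidylate synthase, *Tyms*, fell in both (log2 fold change -0.37 and -0.62; edgeR adjusted p = 5.84e-06 and 2.71e-08).

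The D cyclins, which activate *Cdk4* and *Cdk6* in G1, held the largest fall of the 50 genes in *Atm-/-* (*Ccnd2*) and, narrowly, the largest rise (*Ccnd1*, 0.69 beside 0.68 for *Orc1*). The first place in the rises changed when 1 of 3 samples was left out. Without WT replicate 2 it went to *Ccne2* (0.74, with *Orc1* at 0.74 and *Ccnd1* at 0.66), without WT replicate 3 to *E2f7* (0.68, with *Ccnd1* at 0.67) and without *Atm-/-* replicate 2 to *Orc1* (0.76, with *Ccnd1* at 0.66). *Ccnd1* (chr7:144929931-144939925, minus strand) had 288, 262 and 266 normalized CPM in WT, 429, 465 and 428 in *Atm-/-* and 284, 317 and 269.9 in *Sirt6-/-*. It rose in *Atm-/-* (log2 fold change 0.69, standard error 0.05, edgeR adjusted p = 1.72e-08) and overlapped WT in *Sirt6-/-* (log2 fold change 0.10, standard error 0.06, edgeR adjusted p = 0.162), where library totals called it higher (0.18). *Ccnd2* (chr6:127125162-127152193, minus strand) had 512, 545 and 515 in WT, 209, 205 and 208 in *Atm-/-* and 247, 250.3 and 246 in *Sirt6-/-*. It fell in both knockouts to levels far from any WT sample (*Atm-/-*: log2 fold change -1.34, standard error 0.043, edgeR adjusted p = 1.58e-12; *Sirt6-/-*: log2 fold change -1.08, standard error 0.044, edgeR adjusted p = 1.24e-11). *Ccnd3* was at -0.015 in *Atm-/-* (edgeR adjusted p = 0.814; 0.15 and called higher with library totals) and fell slightly in *Sirt6-/-* (log2 fold change -0.14, standard error 0.052, edgeR adjusted p = 0.0284), a call lost with library totals (-0.046) and without WT replicate 2 (-0.11) or *Sirt6-/-* replicate 1 (-0.099) or 3 (-0.14). Of the summed RPKM of the 3 D cyclins, *Ccnd1* made up 30.1% ± 1.71 in WT, 51.1% ± 0.393 in *Atm-/-* and 40.6% ± 1.59 in *Sirt6-/-* (mean ± SD, n = 3), and *Ccnd2* made up 38.2% ± 0.835, 15.8% ± 0.770 and 22.9% ± 0.894. The share of *Ccnd3* was 31.7% ± 0.902, 33.0% ± 0.380 and 36.5% ± 1.10. These shares are ratios within a sample, so scaling between samples does not enter them, and a share can rise because another member fell. In *Sirt6-/-*, *Ccnd2* was called lower while *Ccnd1* was not called. One pseudogene is named after *Ccnd3*.

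The partner kinases differed as well. *Cdk6* (chr5:3341485-3531008, plus strand) had 39.0, 43.4 and 38.4 normalized CPM in WT, 25.6, 22.8 and 25.3 in *Atm-/-* and 20.1, 17.6 and 16.7 in *Sirt6-/-*. It fell in both (*Atm-/-*: log2 fold change -0.72, standard error 0.079, edgeR adjusted p = 1.46e-06; *Sirt6-/-*: log2 fold change -1.15, standard error 0.088, edgeR adjusted p = 1.65e-08). *Cdk4* rose in *Atm-/-* (log2 fold change 0.46, standard error 0.04, edgeR adjusted p = 1.13e-07) and overlapped WT in *Sirt6-/-* (log2 fold change -0.017, standard error 0.042, edgeR adjusted p = 0.722); it shares 19.7% of its exon bases with *Tspan31* on the opposite strand. The RPKM of *Cdk4* over that of *Cdk6* was 18.9, 17.6 and 19.3 in WT, 39.8, 46.1 and 40.5 in *Atm-/-* and 37.1, 41.6 and 44.0 in *Sirt6-/-*. *Cdk2*, the partner of cyclin E, was not called in *Atm-/-* (log2 fold change -0.02, standard error 0.06, edgeR adjusted p = 0.78; called higher with library totals, at 0.14) and fell in *Sirt6-/-* (log2 fold change -0.35, standard error 0.068, edgeR adjusted p = 0.000276). Of the E cyclins, *Ccne2* (chr4:11191351-11204779, plus strand) had 34.8, 49.4 and 38.2 in WT, 63.9, 58.4 and 62.3 in *Atm-/-* and 58.7, 57.8 and 57.2 in *Sirt6-/-*. It rose in both, with WT replicate 2 the nearest WT sample (*Atm-/-*: log2 fold change 0.59, standard error 0.10, edgeR adjusted p = 0.000123; *Sirt6-/-*: log2 fold change 0.51, standard error 0.10, edgeR adjusted p = 0.000314), and without that sample its log2 fold changes were 0.74 and 0.65. *Ccne2* shares 17.4% of its exon bases with *Ints8* on the opposite strand. *Ccne1* rose in *Atm-/-* (log2 fold change 0.33, standard error 0.082, edgeR adjusted p = 0.0025) and was not called in *Sirt6-/-* (log2 fold change -0.14, standard error 0.084, edgeR adjusted p = 0.153).

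**Figure D4:**
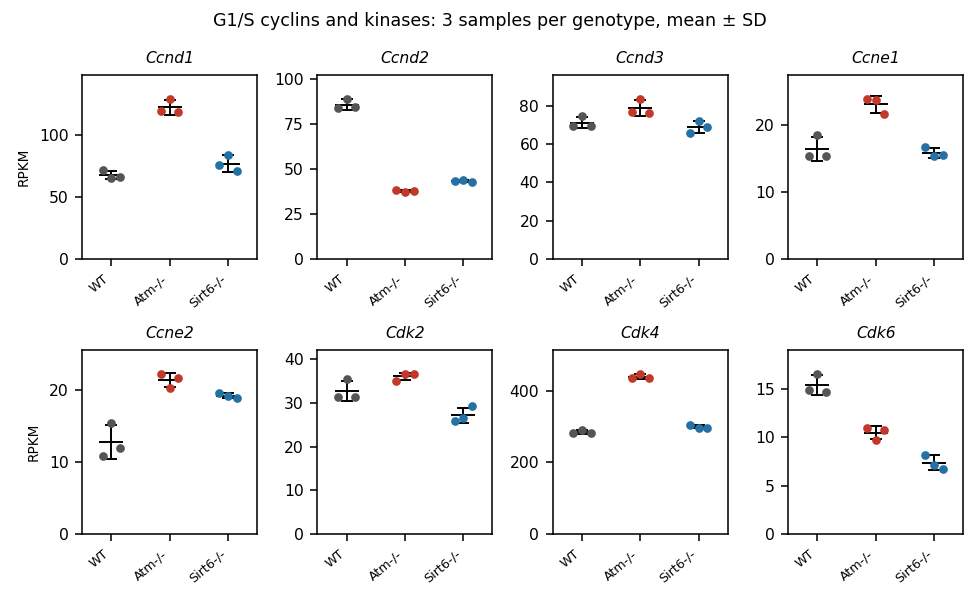
RPKM of the 8 G1/S cyclins and kinases in each of the 3 samples per genotype (points, axes starting at 0) with mean ± SD; RPKM is the deposited value without TMM scaling, so knockout levels sit higher here relative to WT than in normalized CPM. Ccnd2 and Cdk6 are lower than WT in every knockout sample, Ccne2 is higher in every one, and Ccnd1 and Cdk4 are highest in Atm-/-.

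Of the 5 E2F factors and *Uhrf1*, 4 rose in *Atm-/-*, and 1 rose and 3 fell in *Sirt6-/-*. *E2f2* (chr4:136172394-136196057, plus strand), an activator, had 9.66, 8.98 and 11.1 normalized CPM in WT, 13.2, 14.0 and 12.4 in *Atm-/-* and 5.92, 3.71 and 5.40 in *Sirt6-/-*. Its levels were low and its spread wide, and the 3 genotypes still did not overlap (*Atm-/-*: log2 fold change 0.40, standard error 0.12, edgeR adjusted p = 0.0073; *Sirt6-/-*: log2 fold change -0.98, standard error 0.17, edgeR adjusted p = 0.000117). The other activators *E2f1* and *E2f3* rose in *Atm-/-* by 0.22 and 0.38 on the log2 scale (edgeR adjusted p = 0.0123 and 0.000105) and were not called in *Sirt6-/-* (0.071 and -0.13). *E2f1* lost its call in *Atm-/-* without WT replicate 1 (0.16) and was called higher in *Sirt6-/-* with library totals (0.16), while *E2f3* was called lower in *Sirt6-/-* without WT replicate 3 (-0.19). *E2f7* (chr10:110745439-110787384, plus strand), an atypical E2F that represses E2F targets, had 44.0, 46.1 and 45.6 normalized CPM in WT, 72.1, 68.7 and 76.3 in *Atm-/-* and 56.7, 57.8 and 54.0 in *Sirt6-/-*. Both knockouts lay above WT (*Atm-/-*: log2 fold change 0.67, standard error 0.06, edgeR adjusted p = 1.71e-07; *Sirt6-/-*: log2 fold change 0.31, standard error 0.06, edgeR adjusted p = 0.000259). The second atypical repressor, *E2f8*, did not follow *E2f7*. It was at 0.068 in *Atm-/-* (edgeR adjusted p = 0.339; 0.23 and called higher with library totals) and fell in *Sirt6-/-* (log2 fold change -0.80, standard error 0.075, edgeR adjusted p = 1.97e-07). *Uhrf1*, which brings DNA methylation to new DNA, was not called in *Atm-/-* (log2 fold change -0.058, standard error 0.057, edgeR adjusted p = 0.388) and fell in *Sirt6-/-* (log2 fold change -0.50, standard error 0.058, edgeR adjusted p = 2e-06).

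The knockouts were also compared with each other, without the WT samples. Of the 50 genes 43 were higher in *Atm-/-* than in *Sirt6-/-*, 1 was lower and 6 were not called, while 38.0% of the 13460 genes tested were called higher and 37.8% lower. At 1.5-fold or more there were 16 higher and 0 lower, against 19.5% and 22.4% of all genes. The median over the members was 0.46, beside 0.0021 over all genes and a middle range (lower to upper quartile) of -0.53 to 0.46. With library totals the median of all genes was 0.061, and 5549 were called higher and 4679 lower in place of 5116 and 5089. The members gave 45 higher, 1 lower and a median of 0.52. The one gene lower in *Atm-/-* was *Ccnd2* (log2 fold change -0.25, standard error 0.038, edgeR adjusted p = 4.33e-06).

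By role, all 12 licensing genes were higher in *Atm-/-* (median 0.69), as were 3 of 4 helicase activation genes (median 0.54), 6 of 9 clamp, loader and RPA genes (median 0.21), 6 of 7 polymerase and lagging-strand genes (median 0.54) and all 4 nucleotide supply genes (median 0.54). Of the 8 G1/S cyclins and kinases 6 were higher and 1 lower (median 0.40), and all 6 genes of the E2F group with *Uhrf1* were higher (median 0.49). The largest differences were those of *Orc2* (log2 fold change 1.44, standard error 0.057, edgeR adjusted p = 2.69e-15) and *E2f2* (log2 fold change 1.40, standard error 0.15, edgeR adjusted p = 2.66e-08). *Rrm2* (log2 fold change 0.95, standard error 0.041, edgeR adjusted p = 1.39e-14), *Cdc6* (log2 fold change 0.94, standard error 0.055, edgeR adjusted p = 2.4e-12) and *E2f8* (log2 fold change 0.88, standard error 0.071, edgeR adjusted p = 4.5e-10) followed. Several members that differed from WT in the same direction in both knockouts also differed between them. *Cdk6* was higher in *Atm-/-* (log2 fold change 0.45, standard error 0.089, edgeR adjusted p = 0.000133), as were *E2f7* (log2 fold change 0.37, standard error 0.056, edgeR adjusted p = 4.16e-06) and *Rrm1* (log2 fold change 0.52, standard error 0.039, edgeR adjusted p = 1.22e-10), whereas *Ccne2*, *Lig1* and *Rfc1* were not called (0.095, 0.072 and -0.039). With library totals *Ccne2* (0.15, edgeR adjusted p = 0.0162) and *Lig1* (0.13, edgeR adjusted p = 0.00969) were called higher in *Atm-/-*. Some calls were lost when 1 sample was left out. *Orc1* (0.21) was not called without *Atm-/-* replicate 1 (0.16) or 3 (0.17) or *Sirt6-/-* replicate 2 (0.20) or 3 (0.20). *Mcm4* (0.13) was lost without *Sirt6-/-* replicate 3 (0.081) or *Atm-/-* replicate 1 (0.12), and *Rfc4* (0.21) without *Sirt6-/-* replicate 1 (0.15) or *Atm-/-* replicate 1 (0.19). *Rpa2* (0.16) was lost without *Sirt6-/-* replicate 1 (0.097) or *Atm-/-* replicate 3 (0.15), and *E2f1* (0.16) without *Sirt6-/-* replicate 3 (0.15) or *Atm-/-* replicate 1 (0.13). *Ccnd3* (0.14) was lost without *Sirt6-/-* replicate 1 (0.099) or *Atm-/-* replicate 2 (0.094). *Gins2*, not called here, was called lower in *Atm-/-* without *Atm-/-* replicate 2 (-0.18).

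**Figure D5:**
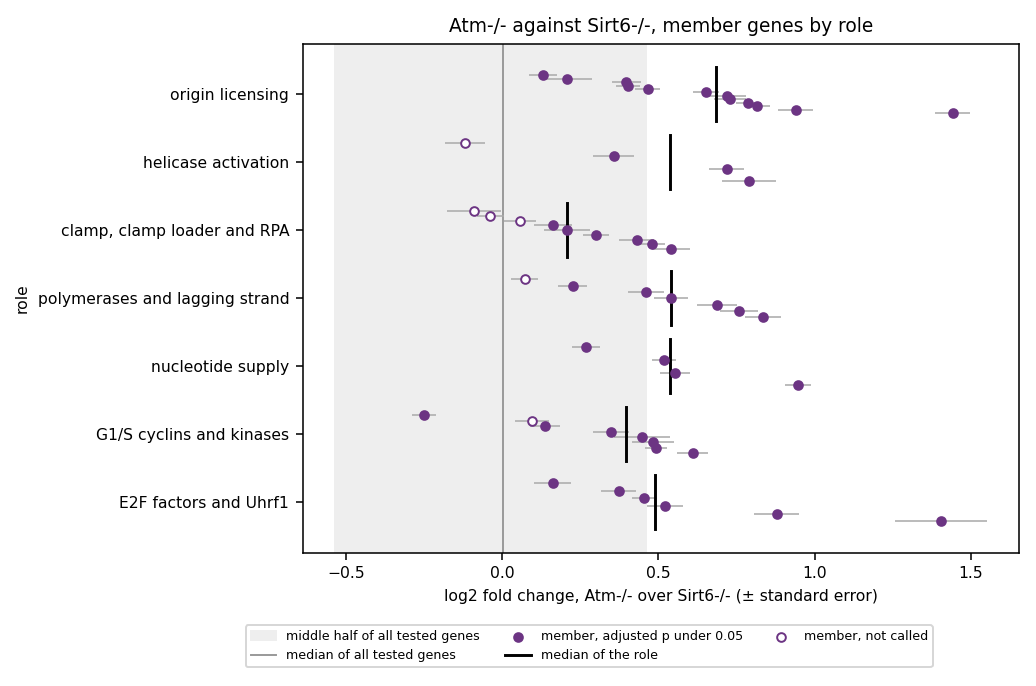
Log2 fold change of each gene in Atm-/- over Sirt6-/- with its standard error, by role; filled points passed an edgeR adjusted p under 0.05, short black lines are role medians, and the grey band is the middle range of all 13460 genes tested, from -0.53 to 0.46. Nearly all points lie to the right of 0, with Orc2 and E2f2 farthest out and Ccnd2 the one filled point to the left.

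Other genes of the pathway, listed by function, are given for context. Of 38 other replication factors, 17 were higher and 4 lower in *Atm-/-* (44.7% and 10.5%, beside 34.7% and 33.6% of all genes; median 0.13), and 6 higher and 21 lower in *Sirt6-/-* (15.8% and 55.3%, beside 39.2% and 37.4%; median -0.27). Library totals gave 26 higher and 3 lower in *Atm-/-* (median 0.29) and 8 higher and 21 lower in *Sirt6-/-* (median -0.18). Over all genes they gave 6156 higher and 3326 lower in *Atm-/-* and 5796 and 4317 in *Sirt6-/-*, which also applies to the lists that follow. The helicase *Recql4* (log2 fold change 0.70, standard error 0.079, edgeR adjusted p = 1.87e-06), the clamp loader subunit *Dscc1* (log2 fold change 0.65, standard error 0.092, edgeR adjusted p = 1.95e-05) and the GINS subunit *Gins4* (log2 fold change 0.56, standard error 0.057, edgeR adjusted p = 6.26e-07) had the largest rises in *Atm-/-*. The histone chaperone subunit *Chaf1b* (-0.67 in *Atm-/-* and -1.12 in *Sirt6-/-*) fell in both, and the fork protection factor *Tipin* (-0.61) and the fork component *Donson* (-0.42) fell in *Atm-/-*. Both also lay below every WT sample in *Sirt6-/-*. There *Tipin* had 67.8, 69.5 and 66.1 normalized CPM against 97.5, 99.3 and 90.5 in WT, and *Donson* 20.2, 23.4 and 20.4 against 33.8, 36.7 and 33.7. In *Sirt6-/-* the nuclease *Dna2* fell most (log2 fold change -1.67, standard error 0.10, edgeR adjusted p = 8.97e-10), with 10.2, 11.6 and 9.33 normalized CPM against 30.7, 34.9 and 33.4 in WT, followed by *Chaf1b* and by *Dbf4*, the activator of the *Cdc7* kinase (log2 fold change -0.97, standard error 0.053, edgeR adjusted p = 3.78e-10). The rises in *Sirt6-/-* were led by *Orc3* (log2 fold change 0.92, standard error 0.061, edgeR adjusted p = 3.19e-09), *Gins3* (log2 fold change 0.61, standard error 0.10, edgeR adjusted p = 4.28e-05) and *Pole3* (log2 fold change 0.59, standard error 0.09, edgeR adjusted p = 3.37e-05). The ORC subunits thus held the largest rise of the list (*Orc3*) and a large fall among the members (*Orc2*) in the same cells.

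Of 20 genes of the RB pathway and its kinase inhibitors, 3 were higher and 10 lower of 19 tested in *Atm-/-* (15.8% and 52.6%, beside 34.7% and 33.6% of all genes), and 7 higher and 8 lower of 20 in *Sirt6-/-* (35% and 40%, near the 39.2% and 37.4% of all genes). Library totals gave 4 higher and 8 lower in *Atm-/-* and 9 and 8 in *Sirt6-/-*. *Cdkn1a*, which encodes the p53 target and CDK inhibitor p21, had 41.7, 26.6 and 24.2 normalized CPM in WT, 12.3, 15.8 and 13.4 in *Atm-/-* and 6.14, 6.33 and 6.33 in *Sirt6-/-*. It fell in both, with the WT samples themselves widely spread (*Atm-/-*: log2 fold change -1.16, standard error 0.17, edgeR adjusted p = 2.44e-05; *Sirt6-/-*: log2 fold change -2.30, standard error 0.17, edgeR adjusted p = 1.61e-08). *Cdkn2a*, whose transcripts encode p16 and p19Arf and whose reads are not split between them here, had 75.2, 65.3 and 76.2 in WT, 216, 229.7 and 212 in *Atm-/-* and 173, 167 and 190.4 in *Sirt6-/-*. It rose in both (*Atm-/-*: log2 fold change 1.59, standard error 0.061, edgeR adjusted p = 1.25e-11; *Sirt6-/-*: log2 fold change 1.29, standard error 0.066, edgeR adjusted p = 1.8e-10). Its neighbour *Cdkn2b*, which encodes p15, fell in *Atm-/-* (log2 fold change -0.44, standard error 0.063, edgeR adjusted p = 2.5e-05) and rose in *Sirt6-/-* (log2 fold change 0.31, standard error 0.06, edgeR adjusted p = 0.000243). *Rb1* was called in neither (-0.091 and -0.17). *Trp53* fell in *Atm-/-* (log2 fold change -3.09, standard error 0.067, edgeR adjusted p = 2.99e-14) and rose in *Sirt6-/-* (log2 fold change 0.35, standard error 0.046, edgeR adjusted p = 7.93e-06), and *Mdm2*, a p53 target that degrades p53, fell in *Sirt6-/-* (log2 fold change -1.11, standard error 0.063, edgeR adjusted p = 6.31e-10). *Mdm2* was also below every WT sample in *Atm-/-*, at 75.6, 77.4 and 77.2 normalized CPM against 105.1, 99.8 and 98.3 in WT. The RB relatives differed by knockout, with *Rbl1* higher in *Atm-/-* (log2 fold change 0.43, standard error 0.064, edgeR adjusted p = 3.13e-05) and *Rbl2* higher in *Sirt6-/-* (log2 fold change 0.74, standard error 0.062, edgeR adjusted p = 4.99e-08). *E2f4* rose in *Atm-/-* (log2 fold change 0.27, standard error 0.061, edgeR adjusted p = 0.00133). *Tfdp2*, a dimer partner of E2F proteins, fell in both (log2 fold change -1.04 and -1.42; edgeR adjusted p = 5.97e-10 and 2.71e-11). *Cdkn1c*, which encodes p57, had 0, 0 and 0 reads in WT, 26, 3 and 12 in *Atm-/-* and 64, 36 and 53 in *Sirt6-/-*; it was called higher in *Sirt6-/-* and was not tested in *Atm-/-*.

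Of 22 G2/M genes, 13 were higher and 2 lower in *Atm-/-* (59.1% and 9.09%, beside the same shares of all genes as above; median 0.22), and 2 higher and 14 lower in *Sirt6-/-* (9.09% and 63.6%; median -0.19). Library totals gave 20 higher and 1 lower in *Atm-/-* (median 0.39) and 2 higher and 11 lower in *Sirt6-/-* (median -0.097). In *Atm-/-* the mitotic cyclin *Ccnb1* (log2 fold change 0.77, standard error 0.045, edgeR adjusted p = 1.12e-09), the kinesin *Kif20a* (log2 fold change 0.60, standard error 0.045, edgeR adjusted p = 2.2e-08) and survivin, *Birc5* (log2 fold change 0.44, standard error 0.063, edgeR adjusted p = 1.86e-05), rose most, while *Ccnb2* (log2 fold change -0.32, standard error 0.063, edgeR adjusted p = 0.000358) and the kinase *Plk1* (log2 fold change -0.23, standard error 0.047, edgeR adjusted p = 0.000561) fell. In *Sirt6-/-* the transcription factor *Mybl2* fell most (log2 fold change -1.23, standard error 0.069, edgeR adjusted p = 4.64e-10), followed by *Plk1* (log2 fold change -0.70, standard error 0.048, edgeR adjusted p = 4.47e-09) and the kinase *Aurka* (log2 fold change -0.64, standard error 0.056, edgeR adjusted p = 7.86e-08), and *Ttk* (log2 fold change 0.34, standard error 0.072, edgeR adjusted p = 0.000576) and *Cdc25b* (log2 fold change 0.23, standard error 0.054, edgeR adjusted p = 0.00123) rose. Between the knockouts, 17 of the 22 G2/M genes were higher in *Atm-/-* and 1 was lower (77.3% and 4.55%). Of the 38 other replication factors, 30 were higher and 3 lower (78.9% and 7.89%). Over all genes tested in that comparison, 38.0% were called higher and 37.8% lower.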

How the data were processed

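RNA was measured by poly(A)-selected Illumina sequencing in 9 MEF samples, 3 each of WT, *Atm-/-* and *Sirt6-/-*, as the labels group them. For each sample the authors deposited whole read counts for 24341 genes without normalization, and RPKM that they made from the same counts, the listed transcript length and the sample's read total. The submitters' processing notes name the mm10 build; the aligner and counting tool are not given in the sources used here. The counts of each pair of genotypes were fitted with edgeR 4.0.16 in R 4.3.3 (filterByExpr, TMM, glmQLFit with a prior count of 0.125, glmQLFTest, Benjamini-Hochberg adjusted p under 0.05 over all genes tested). Each standard error is the log2 fold change divided by the square root of F. Normalized CPM were scaled over all 9 samples. Before TMM scaling, 3 counts correspond to 0.0887 to 0.0932 CPM. RPKM, which carries no TMM scaling, served for levels between genes, ratios within a sample and sums over markers and helicase subunits. Members and lists were chosen with earlier results of these data known.

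Named with full values were, per role and comparison with WT, the called member with the largest change in each direction, every member with opposite calls, up to 3 called genes per direction of each further list, and *Cdkn1a*, *Cdkn2a*, *Cdkn2b*, *Rb1*, *Trp53*, *Atm* and *Sirt6*. Alternatives were DESeq2 1.42.0 (size factors and Wald test), library totals, other filters, edgeR's exact test, all 9 samples in one fit, a replicate block, each sample left out, and a 1.5-fold threshold. On simulated counts for *Atm-/-* against WT (12580 genes), 96 of 100 genes set to change 1.5-fold and 99 of 100 set to 2-fold were recovered, with 5 false calls. The simulated samples were drawn around the WT means with a single fixed dispersion, and the changes were balanced up and down. Far more genes were called in the real comparison and WT replicate 2 stood apart, so these rates need not hold there. Positions and shared exon bases were read from GENCODE M21 (GRCm38); the annotation behind the counts may differ.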

Additional observations from a re-analysis of the deposited data

How the results depend on the processing

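No member took the opposite call under any alternative run. DESeq2 size factors, the DESeq2 Wald test, edgeR's exact test, the other filters, all 9 samples in one fit and the replicate block kept 36 or 37 of the 37 member calls in *Atm-/-* against WT, 35 to 37 of 37 in *Sirt6-/-* against WT and 43 or 44 of 44 between the knockouts. With library totals the medians over the members were 0.36, -0.21 and 0.52, beside 0.18, 0.11 and 0.061 over all genes. A 1.5-fold threshold left 4 higher and 2 lower, 0 and 15, and 16 and 0. Leaving out each sample in turn gave medians of 0.16 to 0.26, -0.35 to -0.27 and 0.45 to 0.49, with 26 to 28 higher and 8 to 11 lower in *Atm-/-*, 5 or 6 higher and 27 to 33 lower in *Sirt6-/-*, and 39 to 42 higher and 1 or 2 lower between them. Requiring at least 10 counts in every sample lost *Mcm3* in *Atm-/-* and *Mcm10* and *Gins1* in *Sirt6-/-*, DESeq2 and the exact test also lost *Mcm3*, and the Wald test lost *Gins1* and *Fen1*.

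Values close to 0 changed sign. With library totals these were, in *Atm-/-*, *Cdt1* 0.080, *Mcm2* 0.068, *Mcm3* 0.027, *Cdc45* 0.10, *Gins2* 0.040, *Rpa3* 0.11, *Prim2* 0.020, *Ccnd3* 0.15, *Cdk2* 0.14, *Uhrf1* 0.11 and *Rb1* 0.073, in *Sirt6-/-* *Mcm5* 0.020, *Rfc2* 0.077, *Rpa1* 0.0044 and *Cdk4* 0.073, and between the knockouts *Rfc1* 0.020. At least 10 counts in every sample gave *Ccnd3* 0.0075 and *Cdk2* 0.0022 in *Atm-/-* and *Rfc2* 0.0040 in *Sirt6-/-*, and for *Gins2* in *Sirt6-/-* DESeq2 size factors gave -0.00042 and the Wald test -0.0018. With a sample left out, signs changed in *Atm-/-* for *Pcna* (-0.015 to 0.071), *Rpa3* (-0.13 to 0.0061), *Ccnd3* (-0.051 to 0.021), *Cdk2* (-0.051 to 0.040) and *Uhrf1* (-0.10 to 0.016), and in *Sirt6-/-* for *Gins2* (-0.053 to 0.048), *Rfc2* (-0.033 to 0.013), *Rpa2* (-0.0065 to 0.095) and *Rpa3* (-0.041 to 0.13). With TMM and all samples none of these values was called except that of *Mcm3*. Of the values with a changed sign, those of *Ccnd3* (edgeR adjusted p = 0.0199) and *Cdk2* (edgeR adjusted p = 0.0433) in *Atm-/-* with library totals were called higher. The cause was not tested.

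The replicate numbers are not known to pair the samples. The deviations of same-numbered samples correlated at -0.020 to 0.076 and those of differently numbered samples at -0.092 to 0.061. With 3 samples per genotype these values cannot exclude a pairing. The fit with a replicate block called *Pold1* lower in *Atm-/-* (-0.17, edgeR adjusted p = 0.0297), lost *Gins1* in *Sirt6-/-* (-0.22, edgeR adjusted p = 0.0558) and changed no other member call. Of the members *E2f2* had the fewest reads, 120 to 491 a sample.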
